A study of Danio rerio with 6 samples.

Results

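The hox genes of paralogue groups 1 to 12 were followed in zebrafish (Danio rerio) caudal tissue, in 3 libraries from embryos that received a sall4 morpholino and 3 control libraries. Members were every row of the deposited tables named hox, then a cluster letter from a to d, then a number from 1 to 12, then a or b. This gave 42 genes of 32520 in the tables, spread over 7 clusters, and 41 of them passed the filter on low counts. RNA came from the tissue lying behind the last somite at 16 hours post fertilisation. Control 1 was injected with a scrambled morpholino, controls 2 and 3 were non-injected, and morphants 1 to 3 carried the sall4 morpholino. No mutant or transgenic allele is named for any group, and the number of embryos behind a library is not given in the sources used here.

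Hox genes encode homeodomain transcription factors that give cells their position along the head-to-tail axis. Within a cluster they lie in the order of their paralogue numbers, and low-numbered genes are switched on earlier and farther forward than high-numbered genes. Teleost fish carry duplicated hox clusters, so that many genes exist as an a and a b copy. In the tailbud, progenitors of the spinal cord and of the somites express successively higher-numbered hox genes as the body lengthens, and group 13 genes mark its end.

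A morpholino pairs with a transcript and keeps it from being spliced or translated, here that of the zinc finger factor gene sall4, without necessarily lowering its level. The sall4 transcript lay between 1110 and 1347 CPM (counts scaled to the TMM-adjusted library size) in the controls and between 974.5 and 1390 CPM in the morphants (−0.03 on the log2 scale, SE 0.27, edgeR adjusted p = 0.97), so it does not check the labels. Total counts per library ranged from 18626513 to 42423495. Markers of tailbud and presomitic mesoderm were abundant: their summed level was 3664 to 4950 FPKM (the deposited values scaled for gene length and library) in controls and 2783 to 7306 FPKM in morphants, with 2 rows named wnt8a at or near 0. Markers of the hindbrain and more anterior structures summed to 8.07 to 21.6 FPKM over the 6 libraries, with 5 of 11 tested and a median log2 fold change of 0.81. That median was the value of six3a (SE 0.66). The genes egr2b, rx3 and otx2b, also at low levels, had changes of 1.37 (SE 0.97), 1.17 (SE 0.67) and 0.30 (SE 0.47). mafba, a hindbrain factor gene, gave most of the sum and had a change of −0.29 (SE 0.36). otx2a and en2a were at or near 0. en2b had 0 counts in each control and 18, 6 and 9 counts in morphants 1, 2 and 3 (DESeq2 adjusted p = 0.0076, not tested by edgeR). Of other markers not tested by edgeR, foxg1a also had more counts in morphants (0, 2 and 5, then 17, 5 and 7). Fewer were counted for en2a (6, 4 and 1, then 0, 0 and 1) and six3b (5, 7 and 9, then 4, 1 and 0). P-values measure the spread between these libraries, which may be technical in part, since separate clutches are not stated.

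In the controls, transcripts of the high-numbered hox genes were the most abundant. Groups 9 to 12, whose members pattern the trunk-to-tail region, made up 66.7% ± 1.45 (SD, n = 3) of the summed FPKM of all 42 genes, groups 5 to 8 made up 20.5% ± 1.15 and groups 1 to 4 made up 12.8% ± 0.323. The shares were 67.0% ± 3.48, 20.1% ± 0.856 and 12.9% ± 2.65 in the morphants. The division of hox transcript between the front, middle and rear groups thus differed between conditions by less than the spread between libraries.

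By paralogue group, group 12 stood highest in controls at 898 ± 146 FPKM, followed by group 9 at 872 ± 139, group 10 at 752 ± 137 and group 11 at 676 ± 127 (summed FPKM, SD, n = 3). These neighbours were closer to each other than the sum of their SDs. A gap larger than that sum separated them from group 7, which consists of hoxb7a alone and stood at 348 ± 59.8 FPKM. Group 6 followed at 345 ± 51.8 FPKM and group 3 at 294 ± 35.1, and these did not differ beyond their spread. Another gap led to groups 4, 8 and 5 at 153 ± 29.0, 149 ± 13.2 and 141 ± 23.6 FPKM, again not distinguishable. A further gap led to groups 2 and 1, at 87.4 ± 10.9 and 77.4 ± 19.8 FPKM. The order of levels did not follow the group numbers throughout, since group 3 lay above groups 4, 5 and 8.

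**Figure D1:**
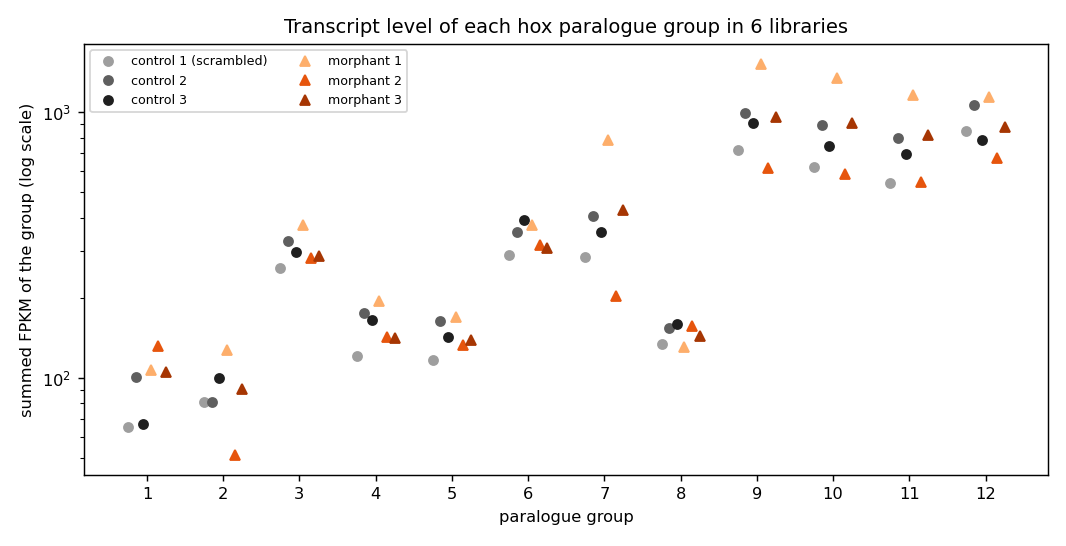
Summed FPKM (log scale) of the members of each paralogue group, 1 point per library, circles for controls and triangles for morphants. In every library groups 9 to 12 lie above groups 1 to 5, and in groups 9 to 11 morphant 1 is the highest point.

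The most abundant member in controls was hoxc12a, a group 12 gene of the hoxca cluster, with 474, 555 and 430 FPKM in controls 1, 2 and 3 and 527, 406 and 459 FPKM in morphants 1, 2 and 3. It was followed in controls by hoxd12a (348 ± 81.9 FPKM), hoxb7a (348 ± 59.8 FPKM) and hoxb10a (338 ± 68.6 FPKM). Neighbours among these 4 differed by less than the sum of their SDs. In morphants hoxb7a had the higher mean, 472 ± 293 FPKM against 464 ± 60.5 FPKM for hoxc12a. In all, 18 of the 42 members had a control mean of at least 100 FPKM. At the other end hoxb1a and hoxa1a, the first genes of their clusters and both under 1 FPKM, had control means of 0.251 ± 0.0368 and 0.470 ± 0.265 FPKM. hoxb1a was the only member that failed the filter on low counts.

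Group 1 shows how unevenly a paralogue group can be used in this tissue. Of its 4 members, hoxb1b held nearly all of the transcript, with 75.1 ± 19.4 FPKM in controls, while hoxc1a stood at 1.57 ± 0.284 FPKM. hoxb1b and hoxb1a are the duplicated copies of one ancestral gene and divide hindbrain patterning between them in zebrafish, hoxb1a in rhombomere 4. Of the 9 pairs of duplicated copies in the set, hoxa9a and hoxa9b (mean ratio of FPKM 0.837) and hoxc6a and hoxc6b (mean ratio 0.959) were near equal in controls. In hoxc12a and hoxc12b the a copy stood higher (mean ratio 8.46), as it did in hoxc11a and hoxc11b (3.17), hoxb5a and hoxb5b (2.80) and hoxb6a and hoxb6b (2.69). In hoxa11a and hoxa11b the b copy stood higher (mean ratio of a to b 0.278).

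The comparison of morphants with controls shows how hox transcript levels stood after the sall4 morpholino. No member passed the threshold of 0.05 on the adjusted p: 0 of 41 tested members by edgeR's quasi-likelihood test, where 0.0281% of all 17803 tested genes passed, and 0 by DESeq2, where 1.57% of genes passed. The smallest adjusted p by edgeR was 0.27, for hoxb4a. At an unadjusted p under 0.05, 5 members (12.2%) were counted against 9.66% of all genes. Of these 3 were higher in morphants (4.47% of all genes) and 2 were lower (5.19%). The groups did not overlap in 7 members (17.1%), 4 of them higher and 3 lower, against 17% of all genes, 7.77% higher and 9.18% lower. The members' counts were thus near those of all genes. Log2 fold changes, as morphant minus control, ran from −1.05 to 0.89 over the members, with standard errors from 0.24 to 0.69.

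Direction was mixed in the front and middle groups and mostly positive in the rear groups. The median log2 fold change was 0.19 over the 41 members and 0.12 over all tested genes, so the members lay 0.07 above all genes. This difference varied with the setting. Against the scrambled control alone the medians of members and all genes were 0.41 and 0.15. Against the non-injected controls they were 0.05 and 0.11, and with the length trend removed 0.09 and 0.10. In the main fit the median was 0.14 over the 12 tested members of groups 1 to 4, −0.16 over the 12 of groups 5 to 8 and 0.22 over the 17 of groups 9 to 12. In groups 9 to 12 the fitted change was above 0 for 16 of 17 members, and for 28 of all 41, against 58.2% of all genes. Without morphant 1 it was above 0 for 5 of 17 and 13 of 41, and the medians were −0.12 over groups 9 to 12 and −0.13 over all members. Without morphant 2, and likewise without morphant 3, it stayed above 0 for 16 of 17. The median deviation of groups 9 to 12 from the control mean was 0.74, −0.31 and 0.21 in morphants 1, 2 and 3. The positive direction in groups 9 to 12 therefore depended on morphant 1, with morphant 2 below and morphant 3 above the control mean.

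**Figure D2:**
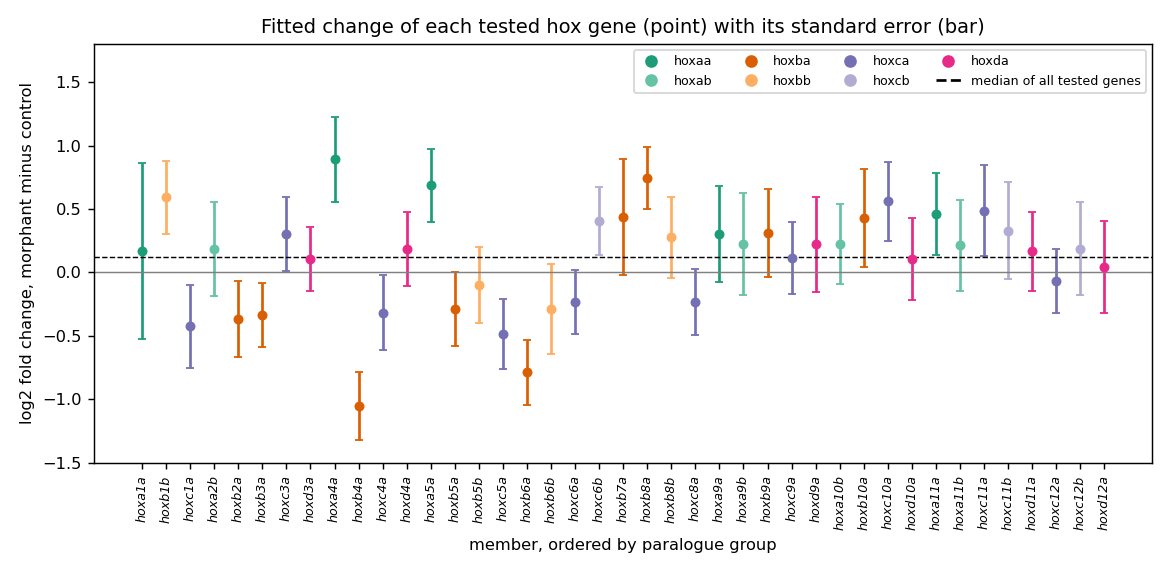
Fitted log2 fold change (points) and standard error (bars) of the 41 tested members, ordered by paralogue group and coloured by cluster, with the median of all tested genes as a dashed line. The lowest point is hoxb4a at −1.05 and the highest is hoxa4a at 0.89, both of group 4, while groups 9 to 12 lie between −0.07 and 0.56.

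The members furthest from the all-gene median lay in groups 4 to 8, and the hoxba cluster held the 3 with the smallest p. hoxb4a (ENSDARG00000013533), a gene that marks the caudal hindbrain and responds to retinoic acid, stood at 35.4, 48.1 and 50.4 CPM in controls 1, 2 and 3 and at 21.5, 20.0 and 23.1 CPM in morphants 1, 2 and 3. Every morphant lay below every control, and the morphants spanned a narrow range. Its log2 fold change was −1.05 (SE 0.26, adjusted p = 0.27 by edgeR and 0.053 by DESeq2). It was the only member with a change of at least 1 on the log2 scale.

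hoxb6a (ENSDARG00000010630), a trunk gene of the same cluster, was measured at 51.0, 71.9 and 69.6 CPM in controls and 37.1, 37.1 and 37.4 CPM in morphants. Here too the groups did not overlap, and the morphant values were nearly equal. The fitted change was −0.79 on the log2 scale (SE 0.26, adjusted p = 0.39 by edgeR).

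hoxb8a (ENSDARG00000056027), a trunk gene farther along the cluster, went the other way, with 25.2, 27.0 and 25.5 CPM in controls and 46.1, 39.3 and 44.7 CPM in morphants. All morphants lay above all controls, by more than the spread in either group. The fitted change was 0.74 on the log2 scale (SE 0.24, adjusted p = 0.39 by edgeR).

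Ratios between genes of one library do not depend on how libraries are scaled. These pairs were chosen after their values were seen, so no test was made. Each divides a gene with a fitted change below 0 by hoxb8a, which was higher in morphants. A wider separation of the groups therefore follows from the choice and adds no support. The FPKM ratio of hoxb4a to hoxb8a was 1.91, 2.42 and 2.69 in controls 1, 2 and 3 and 0.634, 0.690 and 0.702 in morphants 1, 2 and 3. In FPKM, hoxb4a thus exceeded hoxb8a in each control and lay below it in each morphant. The ratio of hoxb6a to hoxb8a was 4.54 ± 0.724 in controls and 1.58 ± 0.132 in morphants (SD, n = 3). That of hoxb5a, which lies between hoxb4a and hoxb6a, to hoxb8a was 3.14 ± 0.459 and 1.52 ± 0.268. In hoxb5a itself the groups overlapped, at 65.1, 87.6 and 87.7 CPM in controls and 76.1, 46.8 and 73.6 CPM in morphants.

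Farther forward in the hoxba cluster all 5 members from hoxb2a to hoxb6a had fitted changes below 0: hoxb2a −0.37, hoxb3a −0.34, hoxb4a −1.05, hoxb5a −0.29 and hoxb6a −0.79. The 4 tested members from hoxb7a to hoxb10a had changes above 0, with hoxb7a at 0.44, hoxb8a at 0.74, hoxb9a at 0.31 and hoxb10a at 0.43. These stretches were picked after their values were seen. The changes of hoxb2a to hoxb6a were all negative in 18 of 19 distinct alternative settings. Without morphant 1 the changes were −0.14 for hoxb7a, 0.70 for hoxb8a, −0.05 for hoxb9a and 0.02 for hoxb10a. The sign thus turned for hoxb7a and hoxb9a, and hoxb10a was left near 0. hoxb7a, for example, stood at 409, 593 and 516 CPM in controls and 1139, 302 and 611 CPM in morphants.

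Annotated spans complicate the reading of these genes. In the RefSeq annotation of assembly GRCz12tu, which is not the build of the files, the span of hoxb3a overlaps hoxb4a, hoxb5a and hoxb6a. That of hoxc3a overlaps 5 members from hoxc4a to hoxc9a, that of hoxd3a overlaps hoxd4a, and that of hoxb1b overlaps hoxb5b and hoxb6b. In all, 17 of the 42 members overlap another hox gene there. How fragments falling in both were counted is not given in the sources used here, so reads of these genes could be shared or dropped. hoxb8a and hoxb7a overlap no other hox gene in that annotation.

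**Figure D3:**
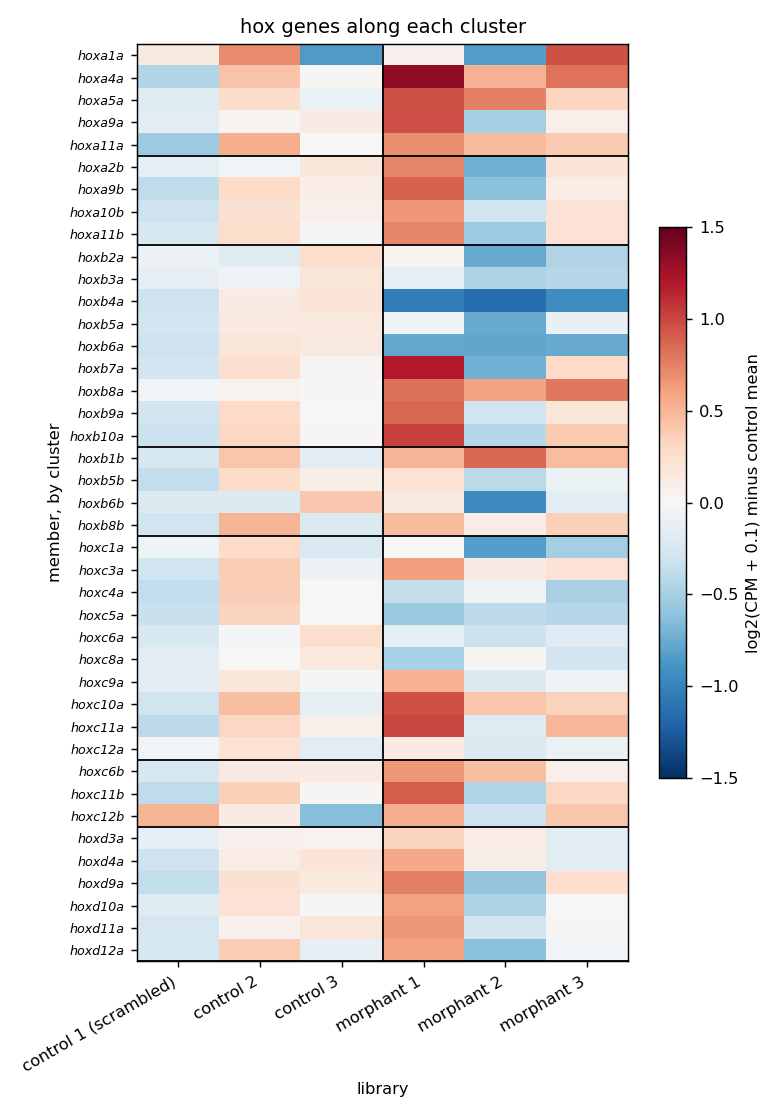
Log2(CPM + 0.1) of each tested member minus its mean over the controls, with libraries in columns and members in rows along each cluster. Red is above and blue below the control mean: hoxb4a and hoxb6a are blue and hoxb8a, hoxa4a and hoxa5a red in all 3 morphants, while most rear genes are red in morphant 1 and blue in morphant 2.

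In the hoxaa cluster all 5 members had fitted changes above 0, with a median of 0.46, as had all 4 of hoxab, all 3 of hoxcb and all 6 of hoxda. Without morphant 1, hoxa9a of the hoxaa cluster was at −0.19, and the other members of that cluster were above 0. All 4 members of hoxab were then below 0, from −0.24 (hoxa9b) to −0.03 (hoxa10b). So were all 6 of hoxda, from −0.32 (hoxd12a) to −0.02 (hoxd3a). Of hoxcb, hoxc11b was then at −0.05, while hoxc6b and hoxc12b stayed above 0. The positive direction across hoxab and hoxda therefore rested on morphant 1. hoxa4a (ENSDARG00000103862), the group 4 counterpart of hoxb4a, stood at 89.2, 163 and 123 CPM in controls and 306, 175 and 214 CPM in morphants. The groups did not overlap, though morphant 2 lay close above control 2. The fitted change was 0.89 on the log2 scale (SE 0.33, adjusted p = 0.45 by edgeR).

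hoxa5a (ENSDARG00000102501), next to it in group 5, stood at 30.3, 41.8 and 32.2 CPM in controls and 66.8, 58.0 and 43.0 CPM in morphants. Morphant 3 exceeded control 2 by little. The fitted change was 0.68 on the log2 scale (SE 0.28, adjusted p = 0.50 by edgeR). In that annotation both hoxa4a and hoxa5a overlap the span of hoxa3a. No member row carries that name, so hoxa3a is in none of the sums or counts here.

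Within group 4, hoxa4a and hoxb4a stood in opposite order in the groups. The FPKM ratio of hoxa4a to hoxb4a, a pair chosen after its values were seen, was 0.643, 0.866 and 0.623 in controls 1, 2 and 3 and 3.64, 2.24 and 2.37 in morphants 1, 2 and 3. The other members of the group, hoxc4a and hoxd4a, had changes of −0.32 and 0.19 with overlapping groups. In group 5 the ratio of hoxa5a to hoxb5a, a pair chosen in the same way, was 0.881 ± 0.121 in controls and 1.82 ± 0.662 in morphants. Summed over the group, the level of group 4 was 153 ± 29.0 FPKM in controls and 159 ± 30.3 in morphants, and that of group 5 was 141 ± 23.6 and 147 ± 19.4 FPKM. The sums of both groups differed by less than the spread between libraries.

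hoxb1b (ENSDARG00000054033), an early hox gene of hindbrain and gastrula, was measured at 92.1, 146 and 96.6 CPM in controls and 155, 198 and 151 CPM in morphants. All morphants lay above all controls, narrowly over control 2. The fitted change was 0.59 on the log2 scale (SE 0.29, adjusted p = 0.56 by edgeR). Unlike most members, its highest value was in morphant 2.

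In the hoxca cluster, hoxc4a, hoxc5a, hoxc6a and hoxc8a had changes of −0.32, −0.49, −0.23 and −0.23. This stretch was picked after its values were seen, and hoxc3a (0.30) and hoxc9a (0.11) on either side of it were above 0. The groups overlapped in hoxc4a, hoxc6a and hoxc8a. All 4 were negative in 18 of 19 distinct alternatives, which refit the same libraries, the exception being the fit against the scrambled control alone. hoxc5a stood at 22.4, 35.5 and 28.0 CPM in controls and 19.0, 21.3 and 20.9 CPM in morphants, without overlap, with a change of −0.49 (SE 0.28, edgeR adjusted p = 0.60). Farther along the cluster hoxc10a stood at 95.6, 161 and 106 CPM in controls and 229, 157 and 149 CPM in morphants, a change of 0.56 (SE 0.31, adjusted p = 0.59). The b copy of group 6, hoxc6b, stood at 146, 192 and 190 CPM in controls and 274, 240 and 184 CPM in morphants, a change of 0.40 (SE 0.27, adjusted p = 0.62), against −0.23 for hoxc6a. The FPKM ratio of hoxc6a to hoxc6b was 0.959 ± 0.101 in controls and 0.634 ± 0.138 in morphants, and the groups did not overlap in it. They overlapped in each gene alone. The pair was chosen after its values were seen, with changes of opposite sign, so the separation of the ratio adds no support.

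**Figure D4:**
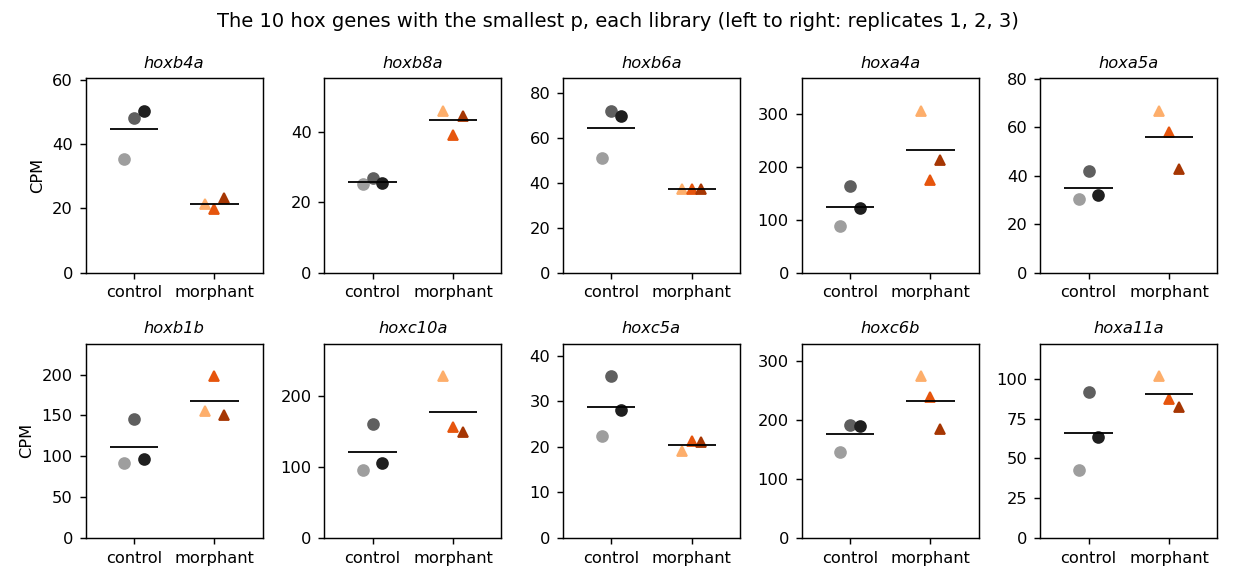
CPM in each library of the 10 members with the smallest unadjusted p, controls as circles and morphants as triangles, with the group mean as a line and each axis starting at 0. The groups do not overlap in hoxb4a, hoxb8a, hoxb6a, hoxa4a, hoxa5a, hoxb1b and hoxc5a, and hoxb4a, hoxb6a and hoxc5a are the members lower in morphants.

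The abundant rear genes differed between libraries of a group more than between the groups. hoxa11b, used in the caudal trunk and fins, stood at 335, 474 and 388 CPM in controls and 658, 271 and 458 CPM in morphants, a change of 0.21 (SE 0.36). hoxd9a, at 202, 307 and 289 CPM and then 443, 174 and 312 CPM, gave 0.22 (SE 0.37). hoxb10a, at 350, 538 and 439 CPM and then 890, 324 and 572 CPM, gave 0.43 (SE 0.39). In each of these morphant 1 was the highest library and morphant 2 the lowest. The edgeR adjusted p-values of hoxa11b, hoxd9a and hoxb10a were 0.82, 0.82 and 0.70.

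hoxc12a, whose FPKM values are given above, had a change of −0.07 (SE 0.25, adjusted p = 0.93). hoxa11a, lower than its b copy, stood at 42.9, 91.5 and 63.2 CPM in controls and 102, 87.2 and 82.3 CPM in morphants. Control 2 lay inside the morphant range, and the change was 0.46 (SE 0.32, adjusted p = 0.64).

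The leading genes of groups 2, 3, 4 and 8 had overlapping groups. hoxa2b, a regulator of the second pharyngeal arch, stood at 96.4, 102 and 119 CPM in controls and 175, 63.8 and 122 CPM in morphants (0.19, SE 0.37, edgeR adjusted p = 0.85). hoxc3a stood at 394, 631 and 456 CPM and then at 741, 528 and 561 CPM (0.30, SE 0.29, edgeR adjusted p = 0.70). For both, morphant 1 was the highest library. hoxd4a stood at 103, 137 and 146 CPM and then at 189, 137 and 114 CPM (0.19, SE 0.29, edgeR adjusted p = 0.81). hoxc8a stood at 118, 133 and 147 CPM and then at 94.4, 136 and 109 CPM (−0.23, SE 0.26, edgeR adjusted p = 0.74).

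Many hox genes were high or low in the same libraries. Morphant 1 was the highest of the 6 libraries for 25 of 41 members (61.0%, against 32.1% of all genes), and morphant 2 the lowest for 23 (56.1%, against 28.2%). Control 1, the scrambled-injected library, was the lowest of the 3 controls for 35 members (85.4%, against 34.6% of all genes). In CPM it lay below the mean of the non-injected controls for 39 of 41 tested members, by a median of 0.42 on the log2 scale. The exceptions were hoxa1a, with its low counts, and hoxc12b, which stood at 191 CPM in control 1 and at 146 and 85.8 CPM in controls 2 and 3. This contrast sets 1 library against 2 and has no test.

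Other quantities moved with these library differences. The summed FPKM of the hox genes was 4076, 5495 and 4806 in controls 1, 2 and 3 and 7417, 3824 and 5196 in morphants 1, 2 and 3. That of the 10 named markers of tailbud and presomitic mesoderm was 3664, 4950 and 4579 and then 7306, 2783 and 4716. Both sums ranked the controls in the order 2, 3, 1 and the morphants in the order 1, 3, 2. The sums of the somite and muscle, blood and endothelium, and hindbrain and more anterior markers did so too. So did that of the upstream activators, but this list shares cdx4 and eve1 with the tailbud markers and mafba and egr2b with the hindbrain markers. The spinal cord, neural crest and lateral plate sums ranked the controls otherwise. The summed FPKM of all genes also ranked the morphants 1, 3, 2, at 892236, 453149 and 694909 in morphants 1, 2 and 3. As a share of it, the hox genes made up 0.664%, 0.960% and 0.673% in controls 1, 2 and 3 and 0.831%, 0.844% and 0.748% in morphants 1, 2 and 3. As a share of counts, they made up 0.674%, 0.963% and 0.744% in controls 1, 2 and 3 and 0.985%, 0.718% and 0.806% in morphants 1, 2 and 3. The share of counts thus kept the orders 2, 3, 1 and 1, 3, 2. The share of summed FPKM kept the order 2, 3, 1 in the controls but ranked the morphants 2, 1, 3. Much of the marker sum came from msgn1, a presomitic mesoderm factor gene, at 1446 to 2314 FPKM in controls and 4404, 1148 and 2399 FPKM in morphants. In bulk tissue, more or fewer cells of a type and more or less RNA per cell cannot be told apart, and the part of tissue make-up in the hox values was not tested.

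**Figure D5:**
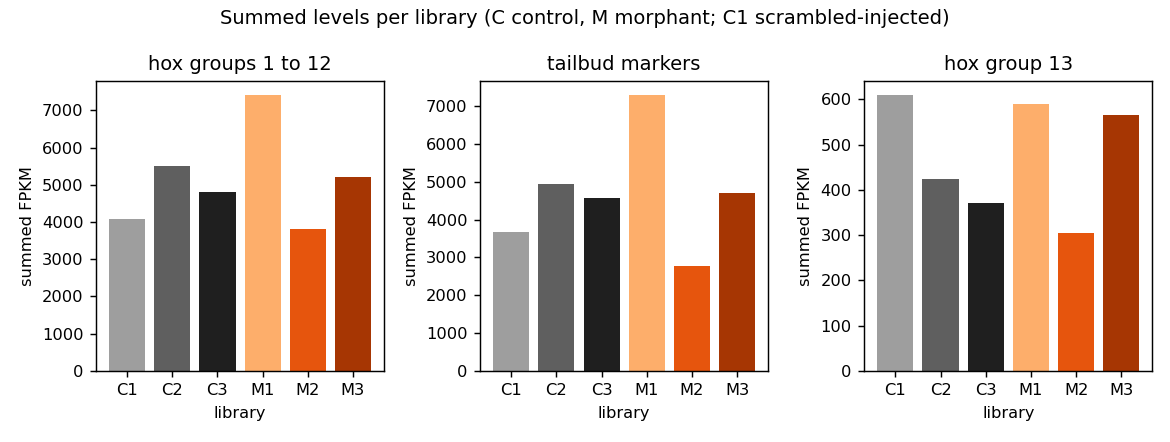
Summed FPKM per library (bars from 0) of the 42 hox genes of groups 1 to 12, of the tailbud and presomitic mesoderm markers, and of the 6 group 13 genes. The first 2 panels share the order of libraries within each group, highest in morphant 1 and lowest in morphant 2, while group 13 is highest in control 1.

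The summed level of the group 13 genes, which end the axial series, followed that order in the morphants but not in the controls. It was 610 FPKM in control 1, 423 and 372 FPKM in controls 2 and 3, and 590, 304 and 565 FPKM in morphants 1, 2 and 3. Of the morphants, hoxa13b and hoxd13a were highest in morphant 1, and hoxa13a, hoxb13a, hoxc13a and hoxc13b in morphant 3. hoxd13a alone gave 287 FPKM in morphant 1. The median deviation of the 6 genes from the control mean was −0.14, −0.83 and 0.35 in morphants 1, 2 and 3. The median log2 fold change of the 6 genes was −0.23, and 0 passed by edgeR or DESeq2. At an unadjusted p under 0.05 by edgeR, 1 was lower, where 5.19% of all genes were lower. hoxa13a, at 157, 66.3 and 72.2 CPM in controls and 51.4, 41.9 and 63.0 CPM in morphants, had the smallest p of them (−0.92, SE 0.39, edgeR adjusted p = 0.51).

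Transcript length also ran with the libraries. The hox genes are short, with a median length of 0.666 of that of all tested genes and 33 of 42 below it. Across all tested genes the Spearman correlation between length and deviation from the 6-library mean was −0.42 in morphant 1, 0.43 in morphant 2 and −0.28 in morphant 3, and 0.21, −0.01 and 0.04 in controls 1, 2 and 3. The median deviation of the hox members from the control mean was 0.61, −0.33 and 0.08 in morphants 1, 2 and 3. With the length trend taken out of each library it was 0.38, −0.19 and −0.02, and that of groups 9 to 12 was 0.55, −0.32 and 0.12. For groups 1 to 4 it went from 0.20, −0.26 and −0.17 to 0.52, −0.40 and −0.11. For groups 5 to 8 it went from 0.17, −0.36 and −0.10 to −0.17, 0.05 and −0.19. In the edgeR fit with the trend removed 13 of 17 members of groups 9 to 12 were above 0, against 16 in the main fit. The changes of hoxb4a, hoxb6a, hoxb8a and hoxa4a with the trend removed were −1.13, −0.84, 0.68 and 1.09.

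Calls depended on morphant 2 and on how libraries were weighted. Without morphant 2, 3 of 41 members (7.32%) passed by edgeR where 8.46% of all genes did: hoxa4a (1.03, adjusted p = 0.049) and hoxb8a (0.79, adjusted p = 0.046) were higher and hoxb4a (−1.02, adjusted p = 0.041) was lower. With the length trend removed as well, 3 members passed where 5.75% of genes did, hoxa4a (1.40, adjusted p = 0.038), hoxb4a (−1.25, adjusted p = 0.024) and hoxb6a (−1.12, adjusted p = 0.028). With limma's voom and library quality weights 13 members (31.7%) passed, 9 higher and 4 lower, against 39.4% of all genes. Those weights were 1.48, 0.745 and 3.17 for controls 1, 2 and 3 and 0.379, 0.136 and 5.53 for morphants 1, 2 and 3. Morphant 3 thus carried most of the weight of its group in that fit. Over the 19 distinct alternatives the log2 fold change ranged from −1.25 to −0.73 for hoxb4a, from −1.12 to −0.47 for hoxb6a, from 0.65 to 0.80 for hoxb8a and from 0.64 to 1.40 for hoxa4a, and none of these changed sign.

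Genes around the hox system were read in the same fit. The TALE homeodomain proteins of the pbx, meis and pknox families bind DNA together with Hox proteins. Of their 14 rows 12 were tested, the median change was −0.04 and 0 passed by edgeR or DESeq2, with 3 lower at an unadjusted p under 0.05, where 4.47% of all genes were higher and 5.19% lower, as for the lists that follow. pbx1b stood at 4.34, 3.05 and 3.84 CPM in controls and 1.31, 1.64 and 2.04 CPM in morphants (−1.16, SE 0.36, edgeR adjusted p = 0.37), and pbx1a at 3.21 ± 0.755 and 1.46 ± 0.279 CPM (−1.14, SE 0.38, adjusted p = 0.40). Every morphant lay below every control for both.

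Of upstream activators and evx neighbours, 10 of 13 rows were tested, with a median of 0.31, and 0 passed by edgeR or DESeq2, with 1 higher and 1 lower at an unadjusted p under 0.05. cdx4, a caudal factor gene that activates hox genes of the trunk and tail, was abundant at 555 to 877 FPKM in controls and 575 to 1081 FPKM in morphants. gdf11, a ligand gene that in mouse promotes the onset of posterior Hox genes, stood at 42.3, 40.3 and 39.9 CPM in controls and 108, 68.3 and 73.5 CPM in morphants (1.03, SE 0.28, edgeR adjusted p = 0.30). hnf1ba, a hindbrain and kidney factor gene, stood at 39.7 ± 6.30 and 20.1 ± 5.54 CPM (−0.98, SE 0.30, adjusted p = 0.36). Groups did not overlap in either.

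Retinoic acid induces low-numbered hox genes. Of the 20 genes for its synthesis, breakdown, binding and receptors 19 were tested, with a median of −0.18. By edgeR 0 passed, and 3 were higher and 2 lower at an unadjusted p under 0.05. DESeq2 called 1, where it called 1.57% of all genes, as for the lists that follow. aldh1a2, the main synthesising enzyme of the somites, stood at 65.7, 40.9 and 71.2 CPM in controls and 26.7, 16.7 and 33.4 CPM in morphants (−1.21, SE 0.35, edgeR adjusted p = 0.35). crabp2a, which encodes a binding protein of retinoic acid, stood at 256, 276 and 242 CPM and at 593, 439 and 767 CPM (1.22, SE 0.29, adjusted p = 0.23 by edgeR and 0.030 by DESeq2). The groups of both were apart.

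Polycomb and Trithorax proteins hold hox genes silent or active. All 18 of their listed genes were tested, and the median was 0.02. By edgeR 0 passed and 1 was lower at an unadjusted p under 0.05, which DESeq2 also called. jarid2b, a Polycomb partner gene, stood at 34.6, 25.1 and 36.0 CPM in controls and 4.60, 13.6 and 8.32 CPM in morphants (−1.85, SE 0.42, adjusted p = 0.22 by edgeR and 0.0066 by DESeq2). The core subunit gene eed, next in order of p, stood at 54.9 ± 9.21 and 42.6 ± 5.75 CPM (−0.37, SE 0.26, adjusted p = 0.64).

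Markers of other cell types gave the following summed levels. Spinal cord and neural progenitor markers stood at 370 to 433 FPKM in controls and 449, 170 and 339 FPKM in morphants 1, 2 and 3, with 0 of 10 at 0. Neural crest markers stood at 113 to 124 FPKM in controls and 54.5 to 83.9 FPKM in morphants, with 0 of 5 at 0 and groups that did not overlap in sum. Lateral plate and fin field markers stood at 34.2 to 52.7 and 43.2 to 70.5 FPKM, and somite and muscle markers at 437 to 836 and 408 to 1358 FPKM. Blood and endothelium markers stood at 115 to 395 FPKM in controls and 412 to 1792 FPKM in morphants. Their groups did not overlap in sum either, though narrowly. The globin genes hbbe1.1 and hbae1.1 gave 794 and 885 FPKM of this sum in morphant 1. Their log2 fold changes were 2.28 and 1.98, and that of gata1a was 1.51. The median of the 7 tested genes was 0.06, with kdrl at 0.06, fli1a at 0.06, tal1 at −0.11 and etv2 at −0.22. By edgeR 0 genes of these lists passed. At an unadjusted p under 0.05 by edgeR, 2 of 10 spinal cord and 4 of 5 neural crest markers were lower, where 5.19% of all genes were. Of 7 blood and endothelium markers 2 were higher, where 4.47% of all genes were. DESeq2 called 2 spinal cord and 2 neural crest markers, where it called 1.57% of all genes. Their part in the hox values was not tested.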

How the data were processed

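RNA-seq was analysed for 6 libraries, 3 per group, of polyadenylated RNA made strand-specific from 500 ng of RNA, per the labels' protocols. The authors deposited whole-number counts for each Ensembl gene. The authors' FPKM values are these counts over a gene length and a scale for each library, which was checked in the files. STAR 2.7.10a, DESeq2 1.38.3 and GRCz11 are named, without roles, per the submitters' processing notes. Counter, strand setting and annotation: not given in the sources used here.

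The filter filterByExpr kept 17803 genes. After TMM scaling, edgeR 4.0.16 under R 4.3.3 tested morphants against controls with no further covariate. P-values are two-sided and Benjamini-Hochberg adjusted over all genes tested. The SE is the log2 fold change over the square root of F. Single genes were compared between conditions in CPM. FPKM, which is per length, was used between genes and for sums over groups and lists. FPKM columns sum to 453149 to 892236, so sums set across libraries also carry the authors' scaling. Alternatives used DESeq2 1.42.0, limma 3.58.1 on log2(FPKM + 1) and log2(FPKM + 0.1), voom weights, other scalings and filters, each control kind (the fit on non-injected controls is the one without control 1, counted once), a replicate block, a length trend (lowess, span 0.3) and each library left out. The fits were tested on simulated data with 200 changed genes. Figures were drawn with matplotlib 3.10.9.

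Values in every library are given for the 10 members with the smallest p and the most abundant member of each paralogue group, and values for up to 2 genes with the smallest p in each related list. Members, lists and settings were chosen with earlier results of these data known. The names cdx4, eve1, msgn1, mafba, egr2b, otx2a, otx2b, six3a, six3b, rx3, foxg1a, en2a, en2b and wnt8a were chosen after their values were seen. So were hbbe1.1, hbae1.1, gata1a, kdrl, fli1a, tal1 and etv2, other hox members outside this rule and the gene ratios. No sequence table was used here.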

Additional observations from a re-analysis of the deposited data

How the results depend on the processing

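No hox gene of groups 1 to 12 passed the threshold in 16 of 19 distinct alternatives. The count was 13 with voom quality weights and 3 with the length trend removed and morphant 2 left out, and 0 to 3 with 1 library left out. With the replicate block the count was 0 and the median over members 0.12. Same-numbered libraries deviated with correlations of −0.29, −0.10 and 0.16, and not every library correlated best with its own number. With 3 libraries per group, these values cannot decide whether same-numbered libraries are paired. With 1 library left out the medians ranged from −0.13 to 0.36 over all members, −0.11 to 0.15 over groups 1 to 4, −0.29 to −0.02 over groups 5 to 8 and −0.12 to 0.46 over groups 9 to 12. Voom weights gave −0.15 for groups 1 to 4, and the fit against control 1 alone, whose spread is taken from the morphants, gave 0.15 for groups 5 to 8. The cause of these shifts was not tested. Of 76 such medians, 73 moved by less than the SD between libraries. That SD was 0.37 over all members and 0.42 over groups 9 to 12, where the main medians were 0.19 and 0.22. It was 0.22 over groups 1 to 4 and 0.25 over groups 5 to 8, where they were 0.14 and −0.16. A median could therefore change sign and still count as moving by less than the SD. Of the 19 named genes 13 kept their direction in every alternative. The sign turned for hoxd4a with voom weights (−0.16). With 1 library left out, values ranged from −0.18 to 0.47 for hoxa2b, −0.036 to 0.34 for hoxd4a, −0.14 to 0.77 for hoxb7a, −0.12 to 0.48 for hoxd9a, −0.13 to 0.46 for hoxa11b and −0.16 to 0.045 for hoxc12a. The lowest values of hoxa2b, hoxd4a, hoxb7a, hoxd9a and hoxa11b came without morphant 1, and the highest of hoxc12a without control 2. Depth limits hoxa1a and hoxb1a, whose levels lay under 1 FPKM in controls.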
